A study of Mus musculus with 2 samples.

Results

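Group 2 innate lymphoid cells (ILC2) were followed in the heart through 10 genes, *Gata3*, *Rora*, *Il7r*, *Il1rl1*, *Il5*, *Il13*, *Areg*, *Il2ra*, *Icos* and *Arg2*. These are 10 of the 27809 genes in the matrix, taken by their symbols. Each was described by hashtag group and by the class of cell that held its reads.

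CD45+ cells, which are the white blood cells of the tissue, were isolated from hearts 1 week after surgery, and their RNA was read by TAS-Seq with BD Rhapsody, where each cell meets a barcoded bead in a microwell. The mice were males aged 8 weeks with a C57BL/6 background, given as C57BL/6N in the labels of the pooled sample. In TAC, transverse aortic constriction, the aorta is narrowed so that the heart pumps against a higher pressure, while sham animals had the surgery without the constriction. There were 2 sham groups, WT and CD3ϵ-/-, and 3 TAC groups, WT, CD3ϵ-/- and CD8+T cell-depleted, and lists of 5 values follow that sequence. CD3ϵ-/- mice lack CD3ϵ, a part of the T cell receptor complex, in every cell and from birth, and they make no mature T cells. The CD8+T cell-depleted mice were WT animals with TAC into which anti-CD8 antibody was injected from the day of surgery on. The cells of all groups went through 1 pooled library and were told apart by hashtags, no cell number occurred under more than 1 hashtag, and the number of mice behind each hashtag was not stated. Each group was therefore 1 sample without replicates, no test was possible, and all intervals below are 95% intervals for counting error alone.

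After filtering, 1000, 835, 1615, 919 and 894 cells remained, with 95717220, 91899777, 208758777, 136130015 and 109031226 reads and a median of 75442 to 117788 reads per cell. Levels are reads of a gene per 1000000 reads of all genes (CPM), summed over the cells of a group. The labels were checked by the targeted genes. *Cd3e*, the gene targeted in CD3ϵ-/- mice, had 17.8, 3.73, 10.8, 5.64 and 13.6 CPM in 69, 42, 103, 83 and 51 cells. Its reads were thus fewer but not absent in the groups labelled CD3ϵ-/-, and counts per gene do not tell whether they came from outside the deleted part. *Cd3g*, another chain of the complex, had 45.6, 0.555, 17.5, 0.0661 and 22.5 CPM, near 0 in both of these groups, which held 3 and 0 T-gated cells. *Cd8b1* had 7.73, 0, 10.7, 0 and 7.74 CPM, held by 8, 0, 12, 0 and 6 cells, so the group labelled CD8+T cell-depleted TAC still held cells with *Cd8b1*.

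ILC2 are tissue-resident lymphocytes without antigen receptors. GATA3 and RORα direct their development, interleukin 7 keeps them alive through its receptor (*Il7r*), and interleukin 33 released by damaged cells activates them through ST2 (*Il1rl1*). Activated ILC2 are known to secrete IL-5, IL-13 and amphiregulin (*Areg*), an EGF receptor ligand known for tissue repair, and to carry the IL-2 receptor α chain (*Il2ra*) and the costimulatory receptor ICOS. None of these genes is restricted to ILC2, since T cells use most of them and mast cells carry ST2 as well.

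Cells were put in classes by fixed gates on single-cell CPM. T cells had *Cd3g* at 100 CPM or more, NK cells *Ncr1* at 50 or more without *Cd3g*, B cells *Cd79a* at 1000 or more, *Cd209a*-gated cells *Cd209a* at 300 or more, and monocytes/macrophages *Csf1r* at 300 and *Lyz2* at 1000 or more. A cell was called ILC2-like when it passed no gate and had 10 CPM or more of at least 3 of the 4 genes *Gata3*, *Rora*, *Il7r* and *Il1rl1*, and 76 of 5263 cells did. These 4 genes made the definition, so their values in the ILC2-like cells are no finding.

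Promoter sequences are shown for *Areg* and for *Il1rl1*, which with *Gata3* had the largest falls from sham to TAC among the members in both genotypes. They are the 250 bases before the start of the gene, on the strand of the gene, from RefSeq on GRCm38.p6. Capitals mark the GATA motif AGATAA or its reverse complement TTATCT, or the palindromic cyclic AMP response element TGACGTCA, which does not overlap the GATA motif. *Il1rl1* has 2 annotated starts, and counts per gene do not tell them apart.

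*Areg*, chr5:91139349-91139598, + strand: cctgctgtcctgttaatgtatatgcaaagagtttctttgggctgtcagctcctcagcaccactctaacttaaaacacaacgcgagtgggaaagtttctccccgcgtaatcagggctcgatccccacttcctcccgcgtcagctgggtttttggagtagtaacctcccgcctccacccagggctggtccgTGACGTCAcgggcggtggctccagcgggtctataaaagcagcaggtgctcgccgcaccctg

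*Il1rl1* upstream start, chr1:40429320-40429569, + strand: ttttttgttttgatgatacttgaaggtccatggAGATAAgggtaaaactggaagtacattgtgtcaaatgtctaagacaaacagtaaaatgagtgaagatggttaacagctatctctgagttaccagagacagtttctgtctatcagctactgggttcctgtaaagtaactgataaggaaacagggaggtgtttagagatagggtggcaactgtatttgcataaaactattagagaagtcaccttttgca

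*Il1rl1* downstream start, chr1:40439379-40439628, + strand: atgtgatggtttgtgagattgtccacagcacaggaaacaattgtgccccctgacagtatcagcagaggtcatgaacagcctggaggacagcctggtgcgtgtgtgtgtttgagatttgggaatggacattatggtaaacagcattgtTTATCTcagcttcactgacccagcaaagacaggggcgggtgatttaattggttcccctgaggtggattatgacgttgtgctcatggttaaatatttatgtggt

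The cyclic AMP response element stood 61 to 54 bases before the start of *Areg*, and 1.55% of the 32851 promoters of this length held it on either strand. The GATA motif stood 217 to 212 bases before the upstream start of *Il1rl1* and 103 to 98 bases before its downstream start, and 9.99% of promoters held it. Of the 8 members with a promoter in the table, *Il1rl1* and *Il13* had a GATA motif and *Areg* had the response element. A match describes the letters only.

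The ILC2-like cells made up a larger share of CD45+ cells in both sham groups than in the 3 TAC groups. There were 33, 30, 5, 4 and 4 of them, or 3.3% (95% interval 2.28% to 4.60%), 3.59% (2.44% to 5.09%), 0.310% (0.101% to 0.721%), 0.435% (0.119% to 1.11%) and 0.447% (0.122% to 1.14%) of kept cells. The intervals of the sham groups did not overlap those of the TAC groups. The sham share was 10.7 times the TAC share in WT and 8.25 times in CD3ϵ-/- mice. The WT ratio was 3.90 when 2 of the 4 genes were enough and 19.4 when all 4 were required. Within sham and within TAC the intervals overlapped between the genotypes.

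Shares of all cells depend on how many other cells were captured, and monocytes/macrophages were 55.5%, 53.9%, 66.9%, 71.3% and 68.5% of cells. Against the B cells as a reference, the ILC2-like cells made up 26.0%, 21.0%, 5.43%, 5.06% and 5.56% of the sum of both. The intervals, 18.6% to 34.5% and 14.6% to 28.6% in sham and within 1.40% to 13.6% in TAC, again did not overlap. Numbers of cells per heart were not measured here.

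**Figure D1:**
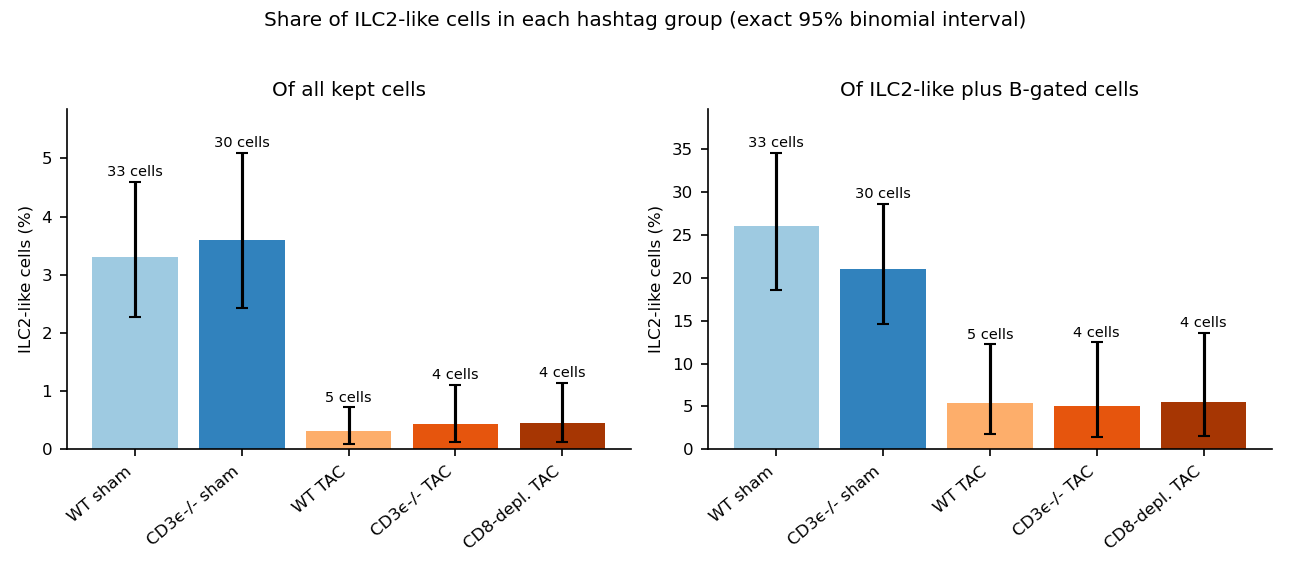
Bars show the share of ILC2-like cells (%) in each hashtag group, of all kept cells on the left and of ILC2-like plus B-gated cells on the right, with exact 95% binomial intervals and the number of ILC2-like cells above. The bars of WT sham and CD3ϵ-/- sham, with 33 and 30 cells, stand above those of the 3 TAC groups, with 4 or 5 cells each.

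The label ILC2-like was checked on genes the definition did not use. Of the 76 cells, 55 had reads of *Thy1*, a surface marker of lymphocytes, 49 of *Ccr8*, 46 of *Il9r*, 40 of *Klrg1* and 31 of *Il17rb*, the receptor of interleukin 25. *Klrg1* had 208 CPM in these cells and 1.94 CPM in all others, and *Il17rb* had 112 and 0.383 CPM. *Ptgdr2*, another ILC2 receptor, had no read in them. *Cd3e* had reads in 4 cells and 1.27 CPM, *Cd3d* in 6 cells and 3.48 CPM, and the NK gene *Eomes* in 1 cell.

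The genes of the T cell receptor constant chains were read all the same, *Trbc1* in 61 cells at 522 CPM and *Trbc2* in 50 cells at 374 CPM, while *Trac* was read in 2. Of the 76 cells, 30 held 3 or more of the 11 T cell markers, 6 held 3 or more of the 6 monocyte and macrophage markers, 1 of the B cell and 1 of the mast cell or basophil markers. *Lyz2* was read in 6 of the cells at 1470 CPM in all.

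Of the members that are receptors and that the definition did not use, *Il2ra* was read in more ILC2-like cells than *Icos*. It had reads in 65 of 76 cells (85.5%, 95% interval 75.6% to 92.5%) at 466 CPM, against 140 CPM in T cells, 45.4 in NK cells, 11.3 in *Cd209a*-gated cells, 4.65 in monocytes/macrophages and 1.97 in B cells. *Icos* had reads in 23 ILC2-like cells (30.3%, 20.2% to 41.9%) at 162 CPM, below its level in T cells, where 45 of 95 cells had reads at 241 CPM. *Icos* was thus the member with its highest level in T cells. The lowest non-zero count of a cell was 1 read for *Il2ra* and 7 for *Icos*, so their numbers of cells rest on unlike floors.

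Of the secreted factors, *Areg* was the one that many ILC2-like cells carried. It had reads in 33 of 76 cells (43.4%, 32.1% to 55.3%) at 441 CPM, and the top cell held 15.7% of these reads. T cells had 174 CPM from 9 of 95 cells, monocytes/macrophages 10.1 CPM from 38 of 3353 cells, and no NK, B or mast cell- or basophil-like cell had a read. *Il5* was read in 3 ILC2-like cells at 4.59 CPM and *Il13* in 4 at 8.86 CPM, never in the same cell. All 7 cells with *Il5* or *Il13* also had *Areg*. *Arg2*, the mitochondrial arginase, had no read in any of the 76 cells, and 3 cells, the limit used for a count of 0, would be 3.95% of cells with a read at this depth.

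In the ILC2-like cells of the TAC groups, the same genes were found in similar shares of cells as in sham. *Areg* was read in 28 of 63 sham cells (44.4%, 31.9% to 57.5%) and in 5 of 13 TAC cells (38.5%, 13.9% to 68.4%), *Il2ra* in 54 of 63 (85.7%) and 11 of 13 (84.6%), and *Icos* in 19 of 63 (30.2%) and 4 of 13 (30.8%). With 13 cells a change in these shares was not detectable at this depth. The summed level of *Areg* was 502 CPM in the sham and 215 CPM in the TAC cells, or 414 and 141 CPM without the top cell of each.

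**Figure D2:**
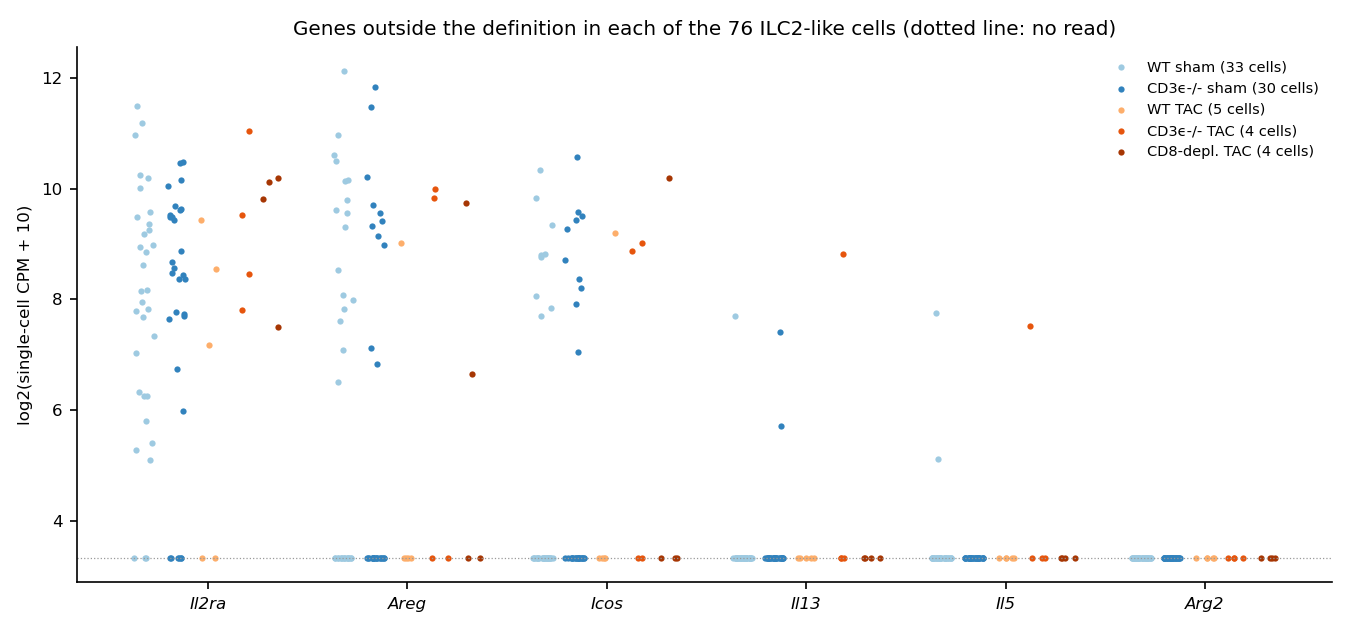
Each point is 1 of the 76 ILC2-like cells, with log2(single-cell CPM + 10) on the vertical axis for the 6 genes outside the definition, split and coloured by hashtag group, and points on the dotted line had no read. *Il2ra* lies above the line in 65 cells, *Areg* in 33, *Icos* in 23, *Il13* in 4, *Il5* in 3 and *Arg2* in none.

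The 3 T-gated cells of CD3ϵ-/- sham hearts carried genes of the ILC2-like definition. All 3 had reads of *Rora*, *Il7r* and *Il1rl1*, at 835, 883 and 756 CPM, 2 had *Gata3* and *Il2ra*, and 1 had *Areg*. They had *Cd3g* at 406 CPM and *Trbc2* at 629 CPM but no read of *Cd3e*, *Trac*, *Cd4* or *Cd8a*. CD3ϵ-/- TAC hearts had no T-gated cell.

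Across whole groups, members are described by their roles, with fold changes on the log2 scale after 2 CPM were added to both levels. A gene was measured in a comparison when either group had 2 CPM or more, and a difference of 2-fold or more was counted. *Il5* and *Il13* stayed below 1 CPM in every group and were measured in no comparison, which leaves 8 members. *Icos* in CD3ϵ-/- TAC and *Arg2* in WT sham were under 2 CPM. They were measured there only through the other group, which fixed the direction of any call.

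From WT sham to WT TAC, 5 of 8 members were at least 2-fold lower (*Gata3*, *Rora*, *Il1rl1*, *Areg* and *Icos*) and 1 was higher (*Arg2*). Of all 13932 genes measured, 4.6% were at least 2-fold lower and 1.23% higher. The median log2 ratio was -1.54 over the members and -0.02 over all genes. From CD3ϵ-/- sham to CD3ϵ-/- TAC, 6 of 8 were lower, the same 5 and *Il7r*, and none was higher, while 3.81% of 13740 genes were lower and 2.09% higher. The medians were -1.19 over the members and -0.02 over all genes.

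Between the genotypes the members differed less. From WT sham to CD3ϵ-/- sham only *Icos* of 8 members was at least 2-fold lower and none was higher, against 1.28% and 0.413% of all genes. From WT TAC to CD3ϵ-/- TAC, *Il1rl1* and *Icos* were lower and none was higher, against 0.744% and 0.916%. With 10 CPM added, both were within 2-fold (log2 ratios -0.94 and -0.67). Against WT TAC, the group labelled CD8+T cell-depleted TAC had none of the 8 past 2-fold, against 0.149% of genes lower and 0.834% higher, and *Areg* was closest with a log2 ratio of 0.96. WT sham, WT TAC and both CD3ϵ-/- groups each serve in more than 1 of these comparisons, so the counts are not independent.

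**Figure D3:**
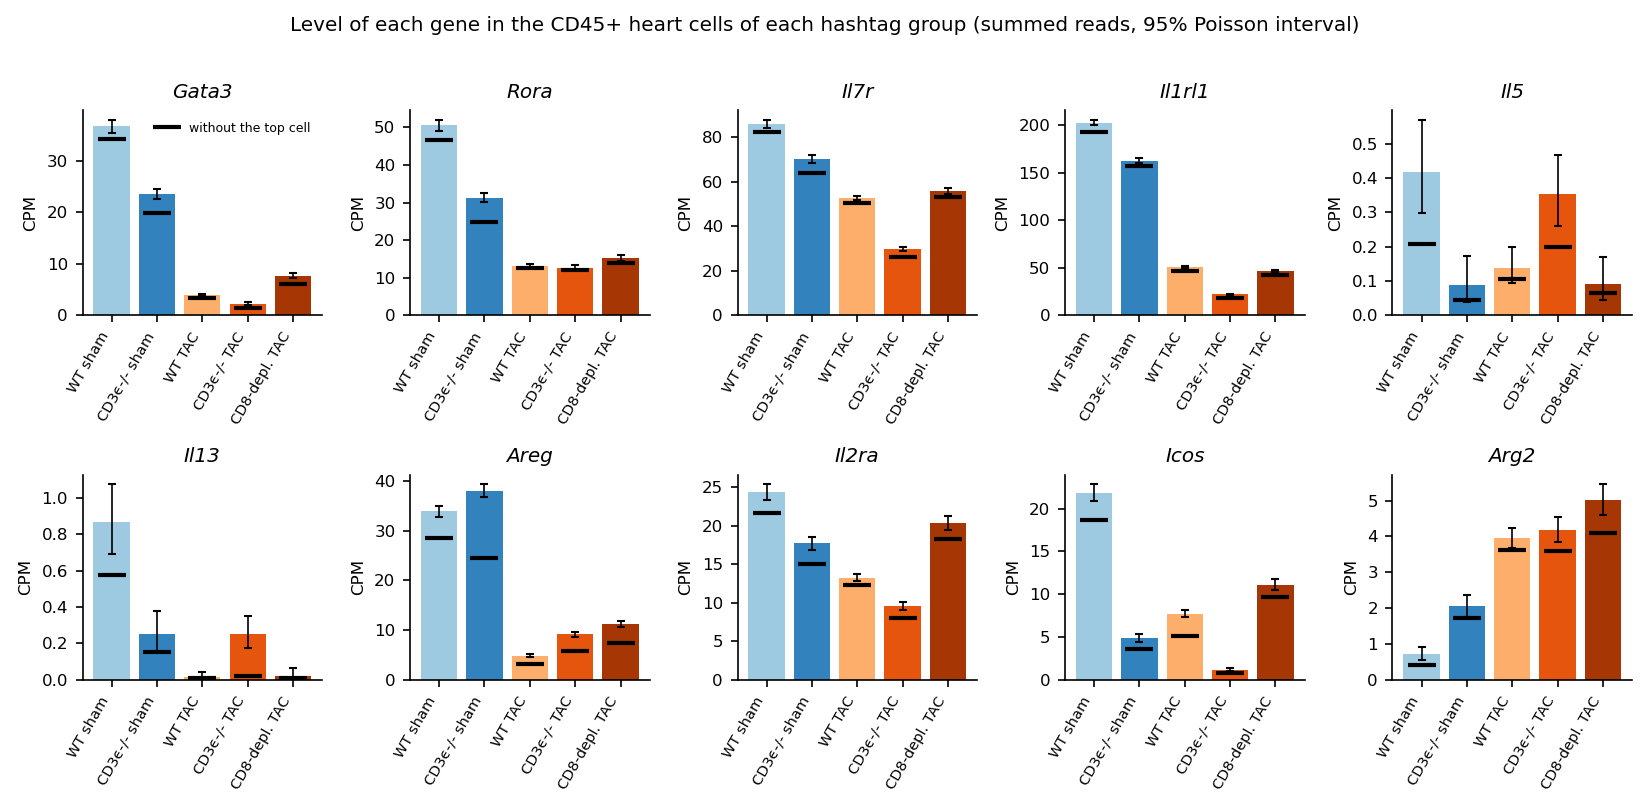
Bars show the level (CPM, linear axis from 0, a scale of its own for each gene) of the 10 genes in the 5 hashtag groups with 95% Poisson intervals of the summed reads, and black marks show the level without the cell that held the most reads. *Gata3*, *Rora*, *Il1rl1* and *Areg* stand higher in both sham groups than in the 3 TAC groups, with and without the top cell, and *Arg2* stands lower.

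Of the transcription factors, *Gata3* had 36.7, 23.6, 3.95, 2.24 and 7.68 CPM. It was 6.51-fold lower in WT TAC than in WT sham and 6.04-fold lower in CD3ϵ-/- TAC than in CD3ϵ-/- sham. T cells held 21.4% of its reads and NK cells 2.94%, beside the 65.4% in the ILC2-like cells, which the definition selects for. After each cell was thinned to 34832 reads, 6.77%, 4.71%, 1.69%, 0.723% and 2.65% of cells had *Gata3*. Of 315 B cells thinned in the same way, 1 had it (0.317%, up to 1.76%). The shares in WT TAC and CD3ϵ-/- TAC lay within the interval of the B cells, so over all cells these shares cannot be told from background. Within the T cells of WT TAC, 10 of 25 had *Gata3*, at 148 CPM.

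*Rora* had 50.5, 31.3, 13.2, 12.7 and 15.2 CPM, and the intervals of WT TAC (12.8 to 13.8) and CD3ϵ-/- TAC (12.1 to 13.3) overlapped. It was 3.44-fold lower after TAC in WT and 2.27-fold lower in CD3ϵ-/- mice, where the log2 ratio was -0.94 without the top cell of each group and -0.86 with 10 CPM added, within 2-fold. T cells held 15.0% of its reads and monocytes/macrophages 32.4%, beside the 34.5% in the ILC2-like cells, which the definition selects for. The level in monocytes/macrophages was 9.96 CPM in the sham and 10.97 CPM in the TAC groups, while the reads of ILC2-like, T and NK cells made up 30.0 CPM of the sham level and 2.93 CPM of the TAC level.

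Of the receptors, *Il7r* had 85.9, 70.2, 52.9, 29.6 and 55.9 CPM. It was 1.60-fold lower after TAC in WT mice, within 2-fold, and 2.28-fold lower in CD3ϵ-/- mice. Its level in monocytes/macrophages was 32.0 CPM in the sham and 36.7 CPM in the TAC groups, and these cells held 21.9% of its reads in sham and 55.1% in TAC. ILC2-like, T and NK cells held 60.0% of its reads in sham and 17.1% in TAC. The ILC2-like part of these shares is no finding, as *Il7r* is in the definition. The share of cells with *Il7r*, thinned, was 6.14% in CD3ϵ-/- TAC and at most 11.9% in the other groups, and no thinned B cell of 315 had it.

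*Il1rl1* was the member with the most reads in the data, at 203, 163, 51.3, 22.0 and 46.6 CPM. It was 3.84-fold lower after TAC in WT and 6.86-fold lower in CD3ϵ-/- mice. Only 12.5% of its reads lay in ILC2-like, T and NK cells. Mast cell- or basophil-like cells, which are ungated cells with at least 3 markers of that list such as *Cpa3* and *Ms4a2*, held 34.1% of the reads at 2679 CPM, monocytes/macrophages 28.4% at 36.1 CPM and *Cd209a*-gated cells 17.1% at 148 CPM.

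Several of these sources were smaller after TAC. The mast cell- or basophil-like cells numbered 36, 27, 7, 2 and 5 and gave 87.4, 62.7, 10.1, 4.26 and 12.0 CPM of the group level of *Il1rl1*. Their own level was 2631 CPM in the 63 sham cells and 2866 CPM in the 14 TAC cells. The shares of B cells with a read of *Il1rl1* and *Il2ra* were 0.458% and 4.58%, at a median of 46666 reads per B cell. In monocytes/macrophages the level of *Il1rl1* itself was lower after TAC, at 90.7, 71.5, 29.2, 13.3 and 20.3 CPM, as was the share of these cells with a read, 26.3% of 1005 sham cells and 10.1% of 2348 TAC cells, although the TAC cells of this class were sequenced more deeply. *Cd209a*-gated cells had 189, 206, 131, 84.6 and 95.2 CPM. ILC2-like cells gave 25.4 and 21.7 CPM of the group level in WT sham and CD3ϵ-/- sham, and 0.992 CPM in WT TAC. These parts are no finding, as *Il1rl1* is in the definition.

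**Figure D4:**
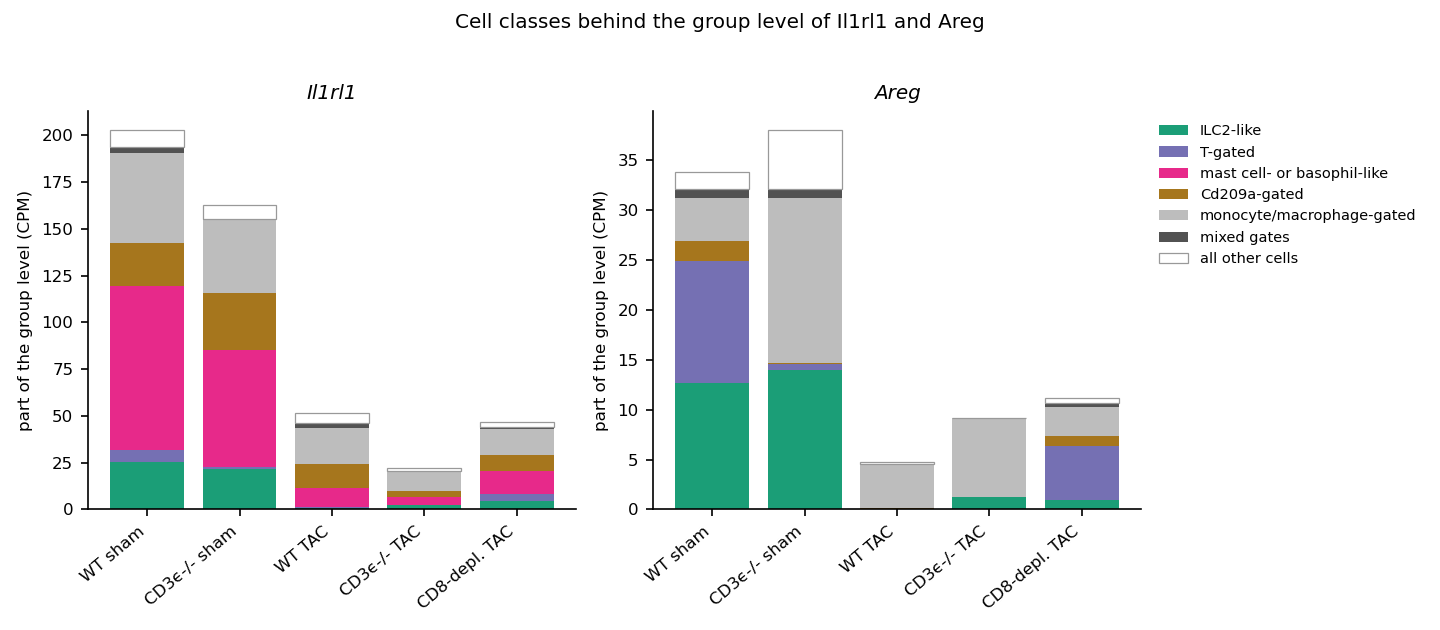
Stacked bars show how much each cell class added to the group level (CPM) of *Il1rl1* on the left and *Areg* on the right in the 5 hashtag groups. For *Il1rl1* the mast cell- or basophil-like part falls from 87.4 CPM in WT sham to 10.1 CPM in WT TAC, and for *Areg* the ILC2-like and T cell parts, 12.7 and 12.2 CPM in WT sham, are 0.0719 and 0 CPM in WT TAC. The monocyte/macrophage part of *Areg* is 4.33 CPM in WT sham and 16.6 CPM in CD3ϵ-/- sham. This class holds 915 of the 995 reads of *Areg* in WT TAC.

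*Il2ra* had 24.3, 17.7, 13.2, 9.59 and 20.3 CPM and was within 2-fold in every comparison. ILC2-like cells held 57.8% of its reads in sham and 10.5% in TAC. In the TAC groups other cells carried it, among them ungated monocyte- or macrophage-like cells, which had 0.823 CPM in sham and 36.7 CPM in TAC, and *Cd209a*-gated cells with 3.46 and 16.7 CPM. The thinned share of cells with a read, 6.25% over all groups, lay within the interval of the B cells (4.44%, up to 7.34%), so over all cells this share cannot be told from background. *Il2ra* was at 5 or more reads in 4.07% of all cells.

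*Icos* had 21.9, 4.90, 7.73, 1.13 and 11.1 CPM and was lower in the CD3ϵ-/- mice, 3.46-fold in sham and 3.11-fold in TAC. The TAC difference was within 2-fold without mixed cells (log2 ratio -0.83) and with 10 CPM added (-0.67), as were those from sham to TAC with 10 CPM added (-0.85 in WT and -0.42 in CD3ϵ-/- mice). T cells held 45.5% of its reads, cells that passed the gates of more than 1 class 24.2% and ILC2-like cells 18.6%. The T cells gave 11.4 CPM of the level in WT sham and 0 in both CD3ϵ-/- groups, while the ILC2-like cells gave 3.27 CPM in WT sham and 4.77 CPM in CD3ϵ-/- sham. A single mixed cell held 34.0% of the reads in WT TAC.

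Of the secreted factors, *Areg* had 33.9, 38.0, 4.77, 9.12 and 11.2 CPM, carried by 34, 29, 14, 8 and 15 cells. It was 5.30-fold lower after TAC in WT and 3.60-fold lower in CD3ϵ-/- mice. Single cells weighed heavily, as the top cell held 15.6%, 35.8%, 35.5%, 36.2% and 34.8% of the reads of its group. Without the top cell the levels were 28.6, 24.4, 3.08, 5.82 and 7.29 CPM, still higher in both sham groups. The thinned shares of cells were 3.78%, 3.74%, 0.743%, 0.964% and 1.81%, and the intervals of both sham groups (2.62% to 5.27% and 2.48% to 5.39%) lay above those of WT TAC (0.371% to 1.33%) and CD3ϵ-/- TAC (0.417% to 1.89%) but overlapped that of CD8+T cell-depleted TAC, which reached 2.96%.

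The cells behind *Areg* differed between the groups. ILC2-like cells gave 12.7 and 14.0 CPM of the level in WT sham and CD3ϵ-/- sham, and 0.0719, 1.25 and 0.945 CPM in the TAC groups. T cells gave 12.2 CPM in WT sham, 0 in WT TAC and 5.44 CPM in CD8+T cell-depleted TAC. *Areg* was read in 5 of 42, 0 of 25 and 3 of 25 T cells of these groups, and 2 of the 3 T cells with *Foxp3*, the transcription factor of regulatory T cells, had it. A single T cell held 43.4% of the T cell reads in WT sham and 71.5% in CD8+T cell-depleted TAC. In the latter group, 1 of the 23 T cells without *Foxp3* had *Areg*, and their level was 44.5 CPM. Monocytes/macrophages gave 4.33 and 16.6 CPM of the level in WT sham and CD3ϵ-/- sham. In WT TAC they held 915 of the 995 reads of *Areg*. Their own level was 8.15, 30.6, 6.71, 10.1 and 4.10 CPM from 7, 10, 11, 6 and 4 cells. A single macrophage-gated cell held 82.0% of the reads of this class in CD3ϵ-/- sham. Without the top cell of each group the levels of monocytes/macrophages were 3.70, 5.50, 4.12, 5.87 and 1.48 CPM.

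*Il5* had 40, 8, 29, 48 and 10 reads in all, in 7, 4, 9, 5 and 5 cells. Thinned, 0.317% of all cells had a read compared with 1.27% of B cells, so over all cells this share cannot be told from background. By class, the level of *Il5* was 4.59 CPM in ILC2-like cells, from 3 of 76, and 0.670 CPM in B cells, from 6 of 437. A single cell held 65.5% of the *Il5* reads of the ILC2-like cells. *Il13* had 83, 23, 3, 34 and 2 reads in 9, 5, 3, 3 and 2 cells. Mast cell- or basophil-like cells held 53.8% of the reads of *Il13*, in 8 cells, and ILC2-like cells 38.6%, in 4 cells, and 31 of the 34 reads in CD3ϵ-/- TAC came from 1 ILC2-like cell.

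*Arg2* had 0.721, 2.05, 3.96, 4.18 and 5.02 CPM, and its level was lower in both sham groups than in the TAC groups. It was 2.19-fold higher in WT TAC than in WT sham, but within 2-fold with 10 CPM added (log2 ratio 0.38). Monocytes/macrophages held 59.9% of its reads, at 3.15 CPM, and neutrophil-like cells, ungated cells with at least 3 neutrophil markers, held 27.6% at 313 CPM. By group, the level in monocytes/macrophages was 0.138, 2.89, 3.49, 3.43 and 4.33 CPM, so in this class CD3ϵ-/- sham lay nearer to the TAC groups than to WT sham. The neutrophil-like cells numbered 0, 4, 11, 11 and 15, and ILC2-like cells had no read. *Arg1*, the cytosolic arginase, was read in 48 of the 76 ILC2-like cells at 574 CPM, against 218 CPM in all other cells.

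**Figure D5:**
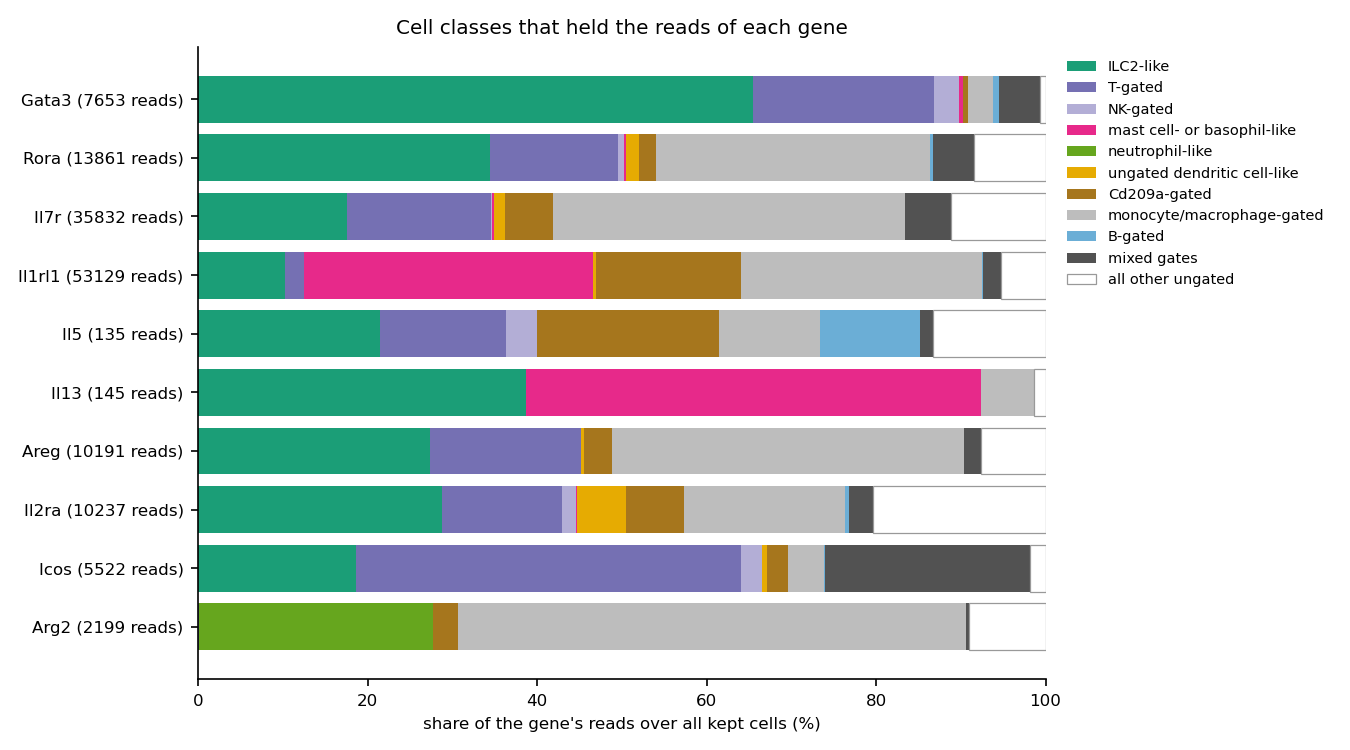
Horizontal bars divide all reads of each gene (100%, number of reads beside the name) among the cell classes. Of the 6 genes that the ILC2-like definition did not use, ILC2-like cells hold 27.4% of the reads of *Areg*, 28.7% of *Il2ra*, 18.6% of *Icos*, 21.5% of *Il5*, 38.6% of *Il13* and none of *Arg2*. Mast cell- or basophil-like cells hold 53.8% of *Il13* and 34.1% of *Il1rl1*, a gene of the definition.

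Genes with the most similar pattern were sought by Pearson's r of log2(CPM + 10) over the 5263 cells, which share 1 library and differ in depth. For *Gata3* they were *Bcl11b* (r = 0.61), *Ccr8* (0.607) and *Trbc1* (0.60), for *Rora* they were *Gata3* (0.487), *Thy1* (0.405) and *Bcl11b* (0.401), and for *Il7r* they were *Gata3* (0.478), *Bcl11b* (0.442) and *Trgc1* (0.42). *Il1rl1* stood apart with *Rab27b* (0.446), *Tpsb2* (0.419) and *Cpa3* (0.418), the latter 2 being mast cell proteases. *Areg* was most like *Klrg1* (0.38), *Ptpn13* (0.357) and *Gata3* (0.355), and *Il2ra* was most like *Gata3* (0.51), *Trgc1* (0.487) and *Ptpn13* (0.443). *Icos* went with *Trbc2* (0.561), *Thy1* (0.536) and *Cxcr6* (0.503), and *Arg2* with the neutrophil genes *S100a8* (0.506), *S100a9* (0.481) and *Mmp9* (0.439). For *Il5* and *Il13*, read in 30 and 22 cells, no value of r exceeded 0.254.

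Of the 55 other genes listed for the pathway, 51 were in the matrix. From WT sham to WT TAC, 14 of 43 measured genes were at least 2-fold lower and 1 was higher, and from CD3ϵ-/- sham to CD3ϵ-/- TAC 10 of 42 were lower and 2 higher. Over all genes, 4.6% were lower and 1.23% higher in the WT comparison, and 3.81% and 2.09% in the CD3ϵ-/- comparison. Of the 7 alarmins and inducers measured, *Il33* alone was lower in WT TAC and none in CD3ϵ-/- TAC. *Il33*, which stromal cells make and which was named after its values were seen, had 7.18, 2.14, 0.838, 0.948 and 0.734 CPM, with log2 ratios of -1.69 from WT sham to WT TAC and -1.15 from WT sham to CD3ϵ-/- sham. *Il18*, *Il15* and *Icosl* were within 2-fold in all 5 comparisons. Among the receptors, 5 of 10 measured were lower in WT TAC (*Il17rb*, *Il2rb*, *Il9r*, *Klrg1* and *Tnfrsf25*) and 3 of 9 in CD3ϵ-/- TAC (*Il17rb*, *Klrg1* and *Tnfrsf18*). A gene under 2 CPM in TAC was measured only through sham, so it could not be called higher. Of all the genes counted lower, these were *Il33*, *Il17rb*, *Klrg1*, *Tnfrsf25*, *Gfi1*, *Penk* and *Il5ra* in WT TAC. In CD3ϵ-/- TAC these genes were *Il17rb*, *Klrg1*, *Csf2*, *Calca*, *Penk*, *Tph1* and *Bcl11b*. *Penk* and *Il5ra* stayed under 10 CPM in every group and are named only for this limit.

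*Klrg1*, an inhibitory receptor of activated lymphocytes, had 11.2, 6.92, 1.62, 1.49 and 2.75 CPM, and its log2 ratio was -1.87 in WT and -1.35 in CD3ϵ-/- mice. The common γ chain *Il2rg* had 687 CPM in ILC2-like cells, where it was read in 72 of 76, and lay between 144 and 164 CPM in every group. Among the effectors, *Csf2* was read in 21 ILC2-like cells at 64.7 CPM against 0.332 CPM in other cells, and *Calca*, which encodes the neuropeptide CGRP, in 16 at 86.2 against 0.110 CPM. *Tph1*, an enzyme of serotonin synthesis, had its highest level, 764 CPM, in mast cell- or basophil-like cells. It was lower after TAC in WT (log2 ratio -1.99) and CD3ϵ-/- mice (-2.29), where its 1.59 CPM in TAC left no other call open.

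*Arg1* was the only gene of the effector list at least 2-fold higher after TAC in WT and in CD3ϵ-/- mice, with 31.3, 31.9, 154, 717 and 56.3 CPM. Of the receptors of the cytokines, *Il4ra* was higher from CD3ϵ-/- sham to CD3ϵ-/- TAC (log2 ratio 1.45). Of the 10 transcription factors, 4 were lower in WT TAC (*Bcl11b*, which ILC2 and T cells need, *Ets1*, *Gfi1* and *Irf4*). In CD3ϵ-/- TAC, 3 were lower than in CD3ϵ-/- sham (*Bcl11b*, *Irf4* and *Zbtb16*). From WT sham to CD3ϵ-/- sham, *Bcl11b* (-1.43), *Tcf7* (-1.54) and *Tox* (-1.25) were lower, against 1.28% of all genes. From WT TAC to CD3ϵ-/- TAC, *Bcl11b* (-1.31) and *Tcf7* (-1.39) were lower, against 0.744%. *Bcl11b* had 1.65 CPM in CD3ϵ-/- TAC, so it could not be called higher there. *Id2*, *Nfil3* and *Stat6* were within 2-fold throughout. Of the other EGF receptor ligands, *Hbegf* had 24.3, 11.9, 3.60, 7.15 and 2.98 CPM and was lower from WT sham to WT TAC (-2.23).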

How the data were processed

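CD45+ heart cells of 5 hashtag groups were measured in 1 pooled TAS-Seq library. The authors deposited counts, whole numbers of reads (not molecules) per gene and cell without normalization, after a cut at an inflection point and error correction of the read distribution, as the name of the matrix tells. The submitters' processing notes name cutadapt 2.10, Bowtie2 2.4.2 and GRCm38, and their roles are not given in the sources used here. The lowest non-zero count per cell was 6 or 7 for *Gata3*, *Il7r*, *Il1rl1*, *Areg* and *Icos* and 1 for the other members. Shares of cells with a read were also given after thinning, which does not make these floors equal. Notes that came with the matrix name the group of each hashtag. Of 5363 columns, 48 were not used, 40 called doublets by the authors and 8 without a hashtag. These 40 are 0.746% of the columns, a smaller share than the study's methods set for doublets, and whether others were removed before deposit is not given in the sources used here. No other doublet caller was run, and cells that passed the gates of more than 1 class were kept apart as mixed (72 cells). Kept cells had at least 500 genes and at most 0.4 of their reads from mitochondrial genes, as in the study's methods.

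Levels are summed CPM with exact Poisson intervals, and shares have exact Clopper-Pearson intervals, both of 95% and for counting error only. Without molecular identifiers reads are not independent molecules, so these intervals are too narrow. For thinned shares, cells under 34832 reads, the 10th percentile, were left out (527 cells), and B-gated cells served as background. Ungated cells took the name of a marker list with 3 or more markers at 50 CPM, a rule chosen after seeing the data. The named genes were the 10 members, and listed pathway genes at 10 CPM or more in a group or in ILC2-like cells. The members and lists were chosen with earlier results of these data known. In a simulation, 80 cells per group were drawn from the average WT sham profile, with planted changes beyond 2-fold. There, 95.5% of 200 changed genes among 11284 came back past 2-fold in the right direction from WT sham to WT TAC. The simulated cells had no classes, and no single cell held most reads of a gene. The value therefore does not measure how reliable the calls are for members carried by few cells. Computations ran in Python 3.11.15 (scipy 1.17.1, numpy 2.4.6, pandas 2.3.3), and plots in matplotlib 3.10.9. Alternatives for scaling, added CPM, filters, gates and the ILC2-like definition were tried.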

Additional observations from a re-analysis of the deposited data

How the results depend on the processing

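The counts of members past 2-fold from sham to TAC, 5 lower in WT and 6 lower in CD3ϵ-/- mice, stayed within 1.5 times under every alternative, and no member past 2-fold changed direction. The sizes moved more. Of 40 member ratios, 29 left their interval with the mean of single-cell CPM, 30 with 10 CPM added and 15 without the top cell. With the mean of single-cell CPM, 1 member (*Arg2*) was higher from CD3ϵ-/- sham to CD3ϵ-/- TAC and 1 (*Areg*) from WT TAC to CD8+T cell-depleted TAC. With 10 CPM added, 0 members were higher from WT sham to WT TAC and 0 were lower from WT TAC to CD3ϵ-/- TAC. Without mixed cells, 1 member (*Il1rl1*) was lower from WT TAC to CD3ϵ-/- TAC and 1 (*Icos*) higher from WT TAC to CD8+T cell-depleted TAC. Without the mast cell- or basophil-like cells, the log2 ratio of *Il1rl1* from sham to TAC was -1.49 in WT and -2.40 in CD3ϵ-/- mice. With at least 2 of the 4 genes, the ILC2-like share in WT TAC was 1.05%, and the sham share was still 3.90 times the TAC share. Over all 9 settings of the definition, the latter ratio was 3.90 to 19.4 in WT mice, and 4.68 to 10.6 in CD3ϵ-/- mice. The setting that allowed any gate but T and NK, and those that left out mixed cells, mast cell- or basophil-like cells or cells with other markers, were chosen after seeing the data. No paired analysis was possible because each group was 1 sample. With 4 or 5 ILC2-like cells in each TAC group, differences between these groups were not detectable at this depth.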
